A study of Mus musculus with 9 samples.

Results

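The genes described here encode the main conjugating enzyme families of mouse: glutathione S-transferases (GSTs), UDP-glucuronosyltransferases (UGTs) and cytosolic sulfotransferases (SULTs). Earlier results of these data were known when these families were chosen. Within them, members were taken by gene symbol, as every row named as a numbered Gst, Mgst, Ugt or Sult gene, with pseudogenes left out. The rule found 67 of the 55468 genes in the table, of which 25 were GSTs, 21 UGTs and 21 SULTs. RNA from the intestinal tract of mice had been sequenced under 9 conditions with 1 library each, in a model of bowel inflammation caused by DSS (dextran sulfate sodium), which damages the epithelium of the gut, in the drinking water. Every group except C drank DSS from day 18. R (day 28) and RR (day 33) had DSS with the normal diet. The groups 1K, 2K and 3K were collected at day 28 after a diet short of methionine, of tryptophan and niacin, and of all 3 nutrients, in that order. For 1KR, 2KR and 3KR the same diets ended at day 28, the normal diet followed, and tissue was taken at day 33. C had the normal diet and no DSS, and was collected at day 34. The sources used here do not give strain, sex, age, animals per library or the stretch of gut taken.

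Conjugation makes fat-soluble compounds water-soluble so that they can be exported. GSTs attach the tripeptide glutathione to reactive compounds, UGTs attach glucuronic acid to compounds such as bilirubin, steroids and plant phenols, and SULTs attach sulfate to hormones, sterols and phenols. Absorptive cells of the small intestine and hepatocytes are the best known sites of all these families. Some members of each family are typical of liver, and others of gut.

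The libraries were checked for other tissues before the members were compared. All 10 gut epithelium markers, such as Epcam, had at least 1 FPKM (sequenced fragments scaled to transcript length and library depth) in every library. The 8 markers of the duodenum and proximal gut, such as Gata4 and Fabp1, held 0.395% of the summed FPKM in 1K, 0.306% in 1KR, 0.247% in RR, 0.215% in 2KR, 0.215% in 3K and 0.122% in 2K, but 0.0323% in R, 0.0208% in C and 0.0173% in 3KR. Of these 8, 5 had at least 1 FPKM in 1K, as in R, C and 3KR. In RR and 2KR 6 did, in 3K and 1KR 7, and in 2K all 8. Gkn3 was listed at 0 in 1K. The 16 hepatocyte markers held 3.95% in 2K and at most 0.246% elsewhere, with Cyp7a1 listed at 0 in R, 1K, 3K and RR. Pancreatic acinar markers held 4.95% in 2K and 7.22% in 3K, and stomach markers 2.25% in 2K. Colon markers held 1.83% in C, 1.53% in 3KR, 1.33% in R and 0.105% to 0.738% in the others. Only 3 of these 9 had at least 1 FPKM in C and 4 in R, against 7 in 3KR. The colon list includes the goblet cell gene Muc2, and goblet cell markers held 3.16% in C. The 7 ileum markers held 0.712% in C, 0.465% in R and 0.0165% to 0.125% in the others. In 3KR the colonic carbonic anhydrase Car1 was at 1151 FPKM against at most 2.56 in the other libraries. By the estimated depth, 1 FPKM of a transcript of 2 kb stood for about 28.3 sequenced fragments in 3KR and 44.8 to 61.8 in the others. In such bulk tissue, fewer cells of a type and less RNA per cell cannot be told apart. The part that these tissue and region markers play in the results below was not tested.

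Of the 67 members, 32 had at least 1 FPKM in all 9 libraries, 20 in some, and 12 stayed under 1 FPKM throughout. The remaining 3, Sult2a3, Sult2a4 and Sult3a2, were listed at 0 everywhere. Summed over all members, the level was 1863 FPKM in C and 1878 in R, but 4841 in 1K, 4225 in RR, 4259 in 1KR and 3420 in 2KR. It was 3342 in 2K, 1955 in 3K and 1903 in 3KR. As a share of each library's summed FPKM, the members held 0.312% in C, 0.314% in R and 0.599% in 1K. They held 0.598% in RR, 0.599% in 1KR and 0.486% in 2KR, with 0.438% in 2K, 0.296% in 3K and 0.195% in 3KR. By share, 3KR was thus below C and R, and 1K was level with RR and 1KR. RR and R, both with DSS and the normal diet, were thus far apart. The GSTs made up most of the sum in every library, with 1238 of 1878 FPKM in R and 3258 of 4841 in 1K. UGTs together had 107 FPKM in 3K, the lowest, and 858 in 1KR, the highest, while SULTs ranged from 285 in 3KR to 996 in 1K.

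**Figure D1:**
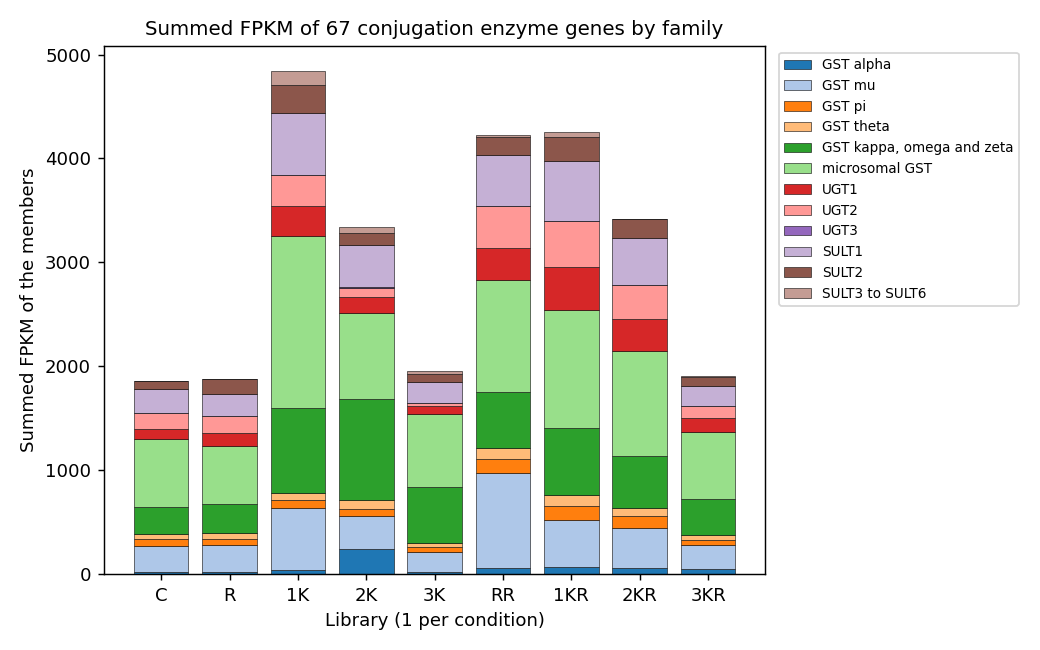
Stacked bars give the summed FPKM of the 67 conjugation enzyme genes in each library, split into 12 families, with 1 library per condition and no error. Bars for C, R, 3K and 3KR end between 1863 and 1955 FPKM, and those for 1K, RR and 1KR between 4225 and 4841.

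**Figure D2:**
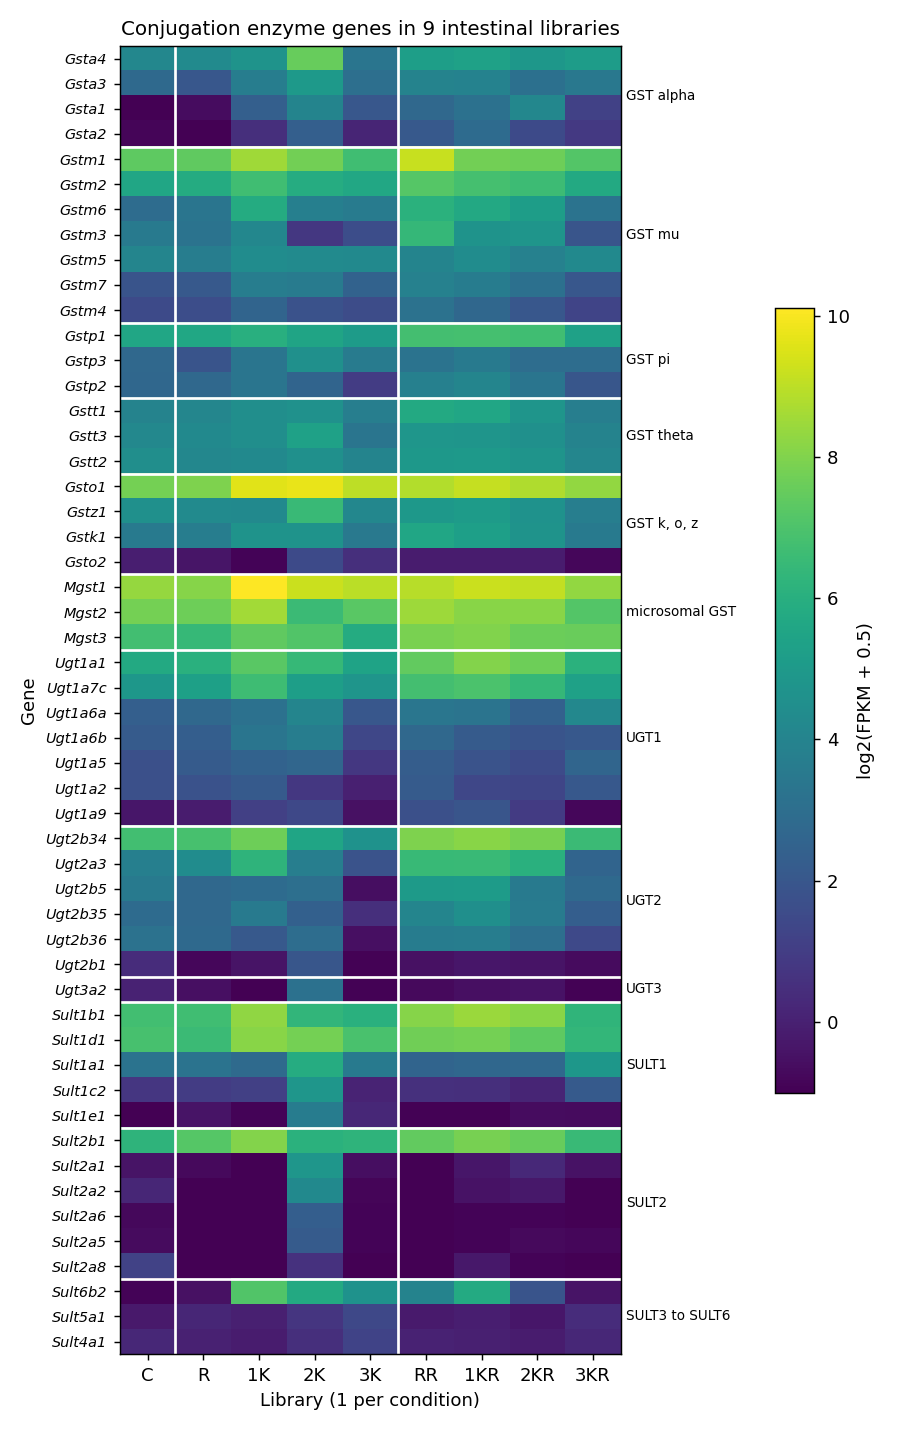
Colour gives log2(FPKM + 0.5) for the 52 members with at least 1 FPKM in any library (rows, by family) in the 9 libraries (columns), with dark for low. The Sult2a genes, Sult1e1 and Ugt3a2 stand out in 2K, most Ugt2 genes are darkest in 3K, and Sult6b2 is dark in C, R and 3KR.

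The question for each pair of libraries was how many members lay at least 2-fold apart, taken as a difference of 1 in log2(FPKM + 0.5) counting a gene where either library had at least 1 FPKM. With 1 library per condition these counts have no replicate check and no p-value, and they are read against the share of all genes past the same fold. A gene under 1 FPKM in 1 library of a pair counts through the other alone and can pass in only that direction. This holds for all genes as for members. Comparisons that use R, RR or C more than once share that library, and C differs from the DSS libraries in day as well. DSS with the normal diet at day 28 (R against C) hardly separated the families: 38 members reached 1 FPKM, 0 were at least 2-fold higher (4.43% of all genes) and 1, Sult2a8, was lower (3.22%). The member farthest above C without reaching 2-fold was Sult2b1, a sulfotransferase for cholesterol and other sterols, at 145 against 74.2 FPKM.

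At day 33 the picture was different. In RR against C, 27 of 42 members were at least 2-fold higher (64.3%, against 6.71% of all genes) and 1 was lower (5.81%). The higher ones comprised 16 GSTs, 8 UGTs and 3 SULTs, and the lower one was again Sult2a8, listed at 0 in RR and at 1.79 FPKM in C. RR against R, which share DSS and diet, gave nearly the same split, with 25 of 41 members higher (5.42% of all genes) and 0 lower (5.29%). In both comparisons the 5 members farthest above the control were Sult6b2, Gsta1, Gsta2, Gstm3 and Gstm6. Sult6b2, Gsta1, Gsta2 and Ugt1a9 were under 1 FPKM in C and R. They were counted through RR alone and could count as higher but not as lower. Sult2a8 was counted through C alone in both comparisons with C and could not count as higher. Proximal gut markers differed in the same direction in these libraries, with 4 of 8 at least 2-fold higher and 1 lower in both. Of 12 enterocyte markers, 7 were higher in RR than in C and 4 higher than in R, with 0 lower. Of 16 hepatocyte markers, 1 was higher and 11 lower in RR against C, although their sum was higher in RR, through Apoc3 at 1586 FPKM against 210.4 in C. Ileal markers were 4 of 7 lower and 0 higher in RR against C and also in RR against R. Their sum was 4255 FPKM in C, 2783 in R and 416 in RR.

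The methionine-deficient library 1K had 16 of 40 members at least 2-fold higher than R (7.17% of all genes) and 0 lower (8.63%). Those 16 were 8 GSTs, 5 UGTs and 3 SULTs, and the farthest were Sult6b2, Gsta1, Gstm6 and Mgst1. Among them Sult6b2, Gsta1 and Ugt1a9 were under 1 FPKM in R, so they counted through 1K alone and could not count as lower. Enterocyte markers were 9 of 12 higher and 0 lower in this pair, and proximal gut markers 4 of 8 higher and 2 lower. Lower by 2-fold were 4 of 7 ileal, 6 of 7 Paneth cell, 5 of 6 crypt, 10 of 16 hepatocyte, 5 of 10 immune cell and 4 of 8 smooth muscle and fibroblast markers. After refeeding, 1KR had 1 of 40 members at least 2-fold above RR (2.47% of all genes), namely Sult6b2, and 2 below (3.51%), namely Gstm3 and Gstm1. The level in 1KR was thus close to that of RR for most members, and the median difference of the 45 members averaging at least 1 FPKM was 0.08, against 0.00 for all 17631 such genes.

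Under the diet short of tryptophan and niacin, 2K had 25 of 50 members at least 2-fold above R (14.7% of all genes) and 4 below (14.1%). The lower ones were Gstm3, Ugt2b34, Sult2b1 and Mgst2. More members reached 1 FPKM here than in any other comparison, because several were measurable in 2K alone. Those, such as Sult2a1, Sult2a2, Sult1e1 and Ugt3a2, could count as higher but not as lower. In this pair 15 of 16 hepatocyte, 12 of 12 acinar and 7 of 8 proximal gut markers were at least 2-fold higher, with 0 lower. Ileal markers were 6 of 7 lower and 0 higher. In 2KR against RR, 1 of 40 members was higher (2.67% of all genes), Gsta1, and 5 were lower (3.67%), namely Sult6b2, Gstm3, Ugt2b5, Gstm1 and Gstm4.

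In 3K, the library short of all 3 nutrients, against R, 7 of 41 members were at least 2-fold higher (11.6% of all genes) and 9 lower (13.4%), shares near the background. All 5 Ugt2 genes that reached 1 FPKM were among the lower ones, with 2 Ugt1a genes, Gstp2 and Gstm3, whereas 0 UGTs were higher. Of these 5, Ugt2b5, Ugt2b35 and Ugt2b36 were under 1 FPKM in 3K, so they counted through R alone and could not count as higher. Proximal gut markers were 4 of 8 higher and 0 lower in 3K against R. Their median difference was 1.52, against -0.40 for the 45 members averaging at least 1 FPKM. In 3KR against RR, 25 of 41 members were lower (9.73% of all genes) and 2, Sult1a1 and Sult1c2, were higher (11.4%). The lower ones were 14 GSTs, 8 UGTs and 3 SULTs, and the median of the 45 members was -1.33 against 0.00 for all genes. In this pair 4 of 8 proximal gut markers were lower and 1 higher by 2-fold. Of 9 colon markers 6 were higher and 0 lower, and of 10 immune cell markers 5 were higher and 1 lower. Of the enterocyte markers 9 of 12 were lower, and of the Paneth cell markers all 7.

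**Figure D3:**
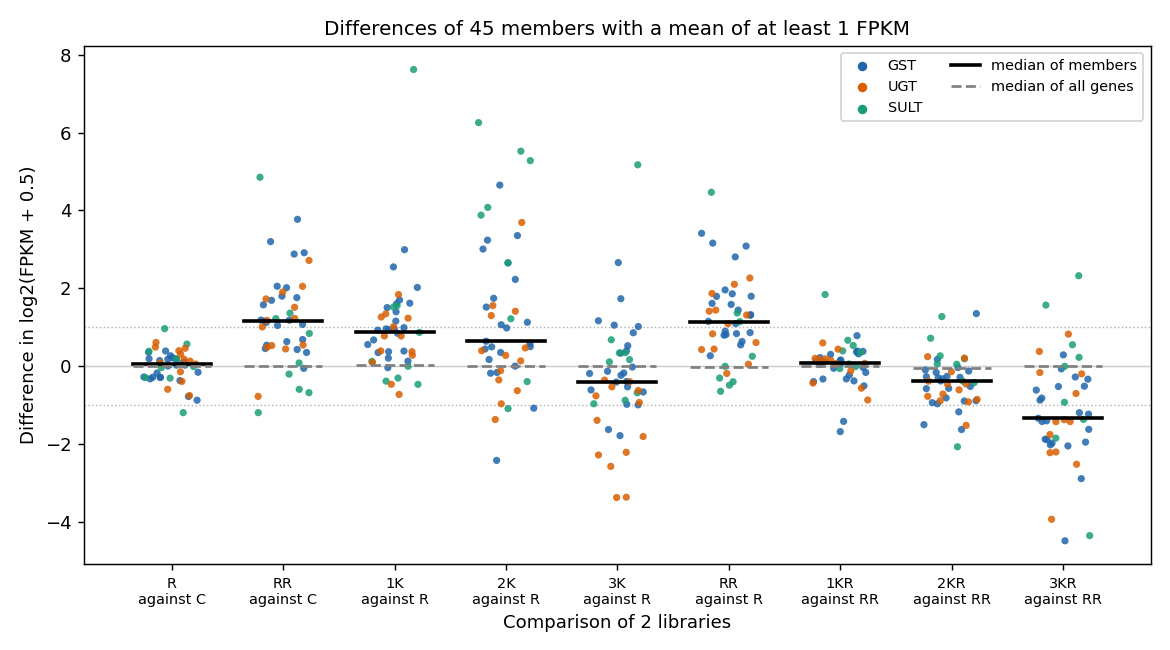
Each point is the difference in log2(FPKM + 0.5) of 1 member between 2 libraries, for the 45 members averaging at least 1 FPKM, with medians of members (black) and of all genes (grey, dashed). The black line lies at 1.16 for RR against C, at 0.87 for 1K against R and at -1.33 for 3KR against RR, while the dashed lines stay within 0.04 of 0.

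With median-of-ratios scaling the all-gene median went from 0.02 to -0.14 in 1K against R and from 0.00 to 0.10 in 3KR against RR. The members' medians became 0.67 and -1.22 in these comparisons, and 1.05 in RR against C. In each case the members stayed on the same side of all genes.

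Promoter sequences from RefSeq (GRCm38.p6, 250 bases before to 50 after a start) were at hand for 59 of the 67 members, with 71 starts. Searched on both strands, the HNF1-type motif, whose letters are in capitals in the Ugt1a1 and Sult1d1 promoters shown and which is named for a regulator of liver and gut genes, was in promoters of 4 of the 59 genes, Sult1d1, Ugt1a1, Ugt1a9 and Ugt1a10, against 51 of 27025 genes (0.189%). The antioxidant response element core TGACNNNGC, bound by NRF2, was in 4, Gsta3, Gstm5, Gstm7 and Mgst1, against 14.0% of all genes, and no member's promoter held both. A match describes letters and not a binding site. The Ugt1a genes with the HNF1-type letters lie in 1 locus and are not independent cases, and the 51 genes include the members. Shown are the promoters of 2 abundant genes with the HNF1-type letters, of the most abundant member, which has the antioxidant letters at 1 of its 2 starts, and of the member with the widest range, which has neither. They are written 5′ to 3′ on the gene's strand, with matches in capitals.
Ugt1a1, chr1:88211709-88212008, plus strand, match starting 47 bases upstream of the start: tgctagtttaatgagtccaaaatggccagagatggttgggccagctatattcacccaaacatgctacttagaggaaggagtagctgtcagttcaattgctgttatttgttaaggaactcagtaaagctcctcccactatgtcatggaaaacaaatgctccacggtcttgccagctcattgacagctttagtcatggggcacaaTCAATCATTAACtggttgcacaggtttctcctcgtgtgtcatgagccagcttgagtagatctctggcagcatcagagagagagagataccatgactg
Sult1d1, chr5:87568957-87569256, minus strand, match starting 79 bases upstream: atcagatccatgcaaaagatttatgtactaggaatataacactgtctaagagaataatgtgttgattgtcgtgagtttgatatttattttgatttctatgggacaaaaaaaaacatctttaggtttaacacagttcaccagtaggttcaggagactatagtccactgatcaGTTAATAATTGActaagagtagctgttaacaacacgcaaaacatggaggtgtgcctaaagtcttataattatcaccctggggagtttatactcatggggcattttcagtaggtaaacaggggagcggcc
Mgst1, chr6:138140277-138140576, plus strand, match starting 56 bases upstream: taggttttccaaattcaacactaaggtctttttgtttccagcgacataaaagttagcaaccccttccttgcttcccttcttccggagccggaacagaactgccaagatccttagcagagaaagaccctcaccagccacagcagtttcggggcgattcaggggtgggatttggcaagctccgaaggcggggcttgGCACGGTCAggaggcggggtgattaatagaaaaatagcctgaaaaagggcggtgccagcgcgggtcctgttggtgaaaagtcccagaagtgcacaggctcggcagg
Sult6b2, chr6:142804417-142804716, minus strand, no match: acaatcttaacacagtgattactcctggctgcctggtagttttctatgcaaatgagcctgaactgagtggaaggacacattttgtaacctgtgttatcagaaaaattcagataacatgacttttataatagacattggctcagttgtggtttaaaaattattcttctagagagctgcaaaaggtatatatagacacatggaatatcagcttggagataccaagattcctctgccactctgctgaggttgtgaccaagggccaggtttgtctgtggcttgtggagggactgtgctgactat

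Microsomal GSTs are membrane-bound enzymes that act on lipid peroxides and, in part, on leukotrienes. Mgst1 had the highest mean of all members and was at 329 FPKM in C, 272 in R, 1107 in 1K, 595 in 2K, 494 in 3K, 479 in RR, 598 in 1KR, 542 in 2KR and 314 in 3KR. The 1K library was 1.85-fold above the next, and the difference from R was 2.02 on the log2 scale. Mgst2 was at 223 FPKM in C, 201 in R, 386 in 1K, 95.2 in 2K, 152 in 3K, 359.9 in RR, 278 in 1KR, 277 in 2KR and 143 in 3KR. It was lowest in 2K, the library in which its relative Mgst1 was among the highest. Mgst3 ranged from 56.9 FPKM in 3K to 259 in 1KR.

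Gsto1, an omega-class enzyme that reduces arsenic compounds, was second by mean. It was at 221 FPKM in C, 251 in R, 773 in 1K, 845 in 2K, 510.4 in 3K, 458 in RR, 566 in 1KR, 448 in 2KR and 321 in 3KR. The 3 libraries of the deficient diets at day 28 were higher than R, by 1.62 in 1K, 1.75 in 2K and 1.02 in 3K on the log2 scale. Its neighbour Gsto2 reached 1 FPKM only in 2K, at 2.34. Gstz1, which isomerises maleylacetoacetate in tyrosine breakdown, was at 91.9 FPKM in 2K and between 12.9 and 33.8 in the others.

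The mu class lies in a cluster of 7 genes on chromosome 3 (107895821 to 108044894, GRCm38), and 6 of the 7 were highest in RR. Gstm1 (ENSMUSG00000058135, chromosome 3, 108012255 to 108017973, minus strand) had 165 FPKM in C, 166 in R, 372 in 1K, 212 in 2K, 105 in 3K, 577 in RR, 216 in 1KR, 204 in 2KR and 139.6 in 3KR. It was the most abundant GST of RR, with 20.4% of that library's GST sum. RR stood above 1KR, 2KR and 3KR, which lay between 139.6 and 216.

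Gstm3 (ENSMUSG00000004038, chromosome 3, 107963696 to 107969283, minus strand) ranged most widely among the 32 members found in every library. It was at 10.9 FPKM in C, 8.92 in R, 17.4 in 1K, 1.27 in 2K, 2.56 in 3K, 83.8 in RR, 25.9 in 1KR, 26.9 in 2KR and 3.28 in 3KR, a span of 66.1-fold. RR stood above every other library, while R and C, also on the normal diet throughout, were below 1K, 1KR and 2KR. Gstm6 was at 7.02 FPKM in C, 9.38 in R, 57.4 in 1K, 13.5 in 2K, 12.0 in 3K, 68.6 in RR, 52.2 in 1KR, 35.7 in 2KR and 8.88 in 3KR. Here 1K and 1KR were close to RR, unlike for Gstm3.

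Gstm5, at the other end of the cluster and on the opposite strand, was the steadiest member found in all libraries. It ranged only from 12.8 FPKM in R to 20.7 in 1K, or 1.62-fold. In RR against C, it and the other 6 mu genes differed, since those 6 were at least 2-fold higher and Gstm5 was at 15.5 against 16.1. Gstm2, Gstm4 and Gstm7 followed the RR-high order, with Gstm2 between 47.5 FPKM in C and 143 in RR.

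**Figure D4:**
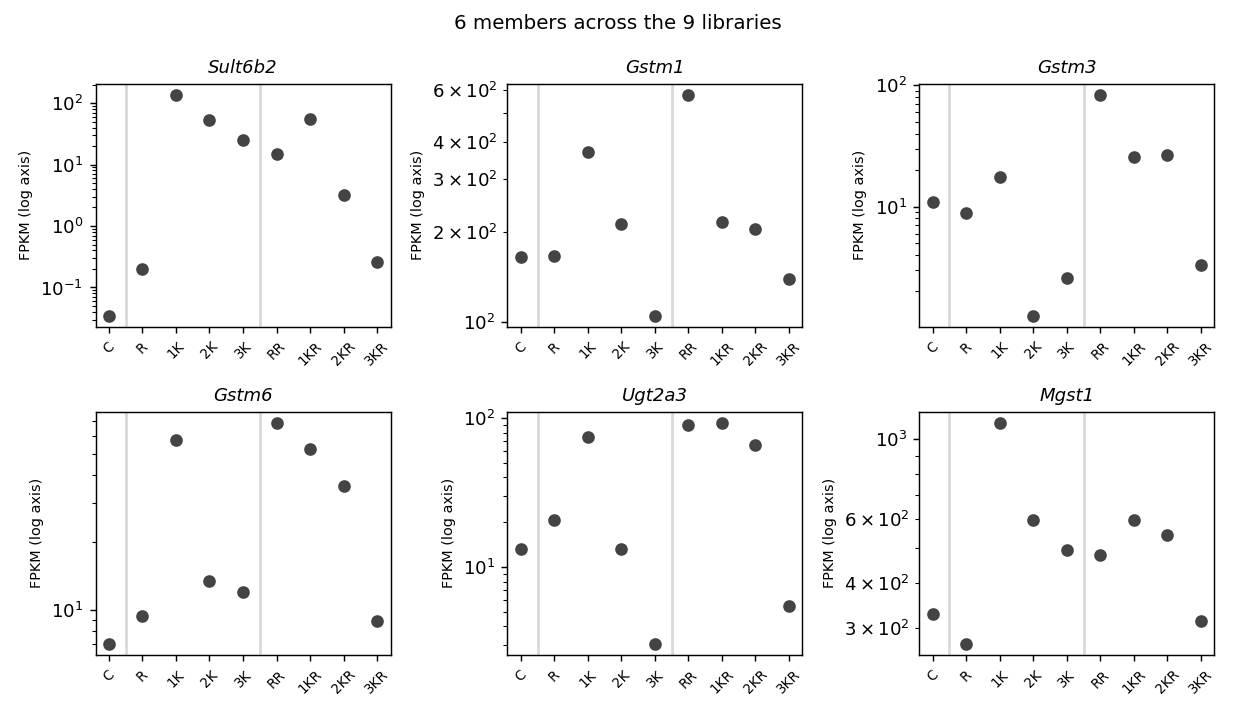
FPKM on log axes for 6 members in each of the 9 libraries, 1 point per library, with lines dividing the control, day 28 and day 33. Sult6b2 runs from 0.035 in C to 137 in 1K, Gstm1 and Gstm3 peak in RR, and Ugt2a3 is lowest in 3K and 3KR.

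Alpha-class GSTs conjugate products of lipid peroxidation and bind bile pigments. Gsta1 (ENSMUSG00000074183, chromosome 9, 78230656 to 78242684, plus strand) was listed at 0 in C and was at 0.141 FPKM in R, 4.61 in 1K, 15.6 in 2K, 3.56 in 3K, 6.33 in RR, 8.46 in 1KR, 16.9 in 2KR and 1.73 in 3KR. Its transcripts share 90.5% of their 50-base words with other genes, mostly with the unnumbered gene Gm3776, so reads can be assigned to either. The sum of Gsta1 and Gm3776 was 28.3 FPKM in RR and 28.7 in 2KR, although Gsta1 alone differed by 1.35 on the log2 scale. The higher value of Gsta1 in 2KR is therefore uncertain, whereas the pair was at 0.923 FPKM in C, 0.847 in R, 16.8 in 1K and 56.7 in 2K.

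Gsta2 was near 0 in C and R and at 6.82 FPKM in 1KR, its highest. Gsta4, which clears 4-hydroxynonenal and shares 0 of its 50-base words with other genes, was at 17.1 FPKM in C, 19.3 in R, 25.5 in 1K, 187 in 2K, 9.49 in 3K, 36.5 in RR, 40.4 in 1KR, 29.2 in 2KR and 34.9 in 3KR. Only 2K was far from the others, at 4.62 times the next library. Gsta3 was also highest in 2K, at 32.0 FPKM against 3.54 in R.

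Gstp1, the pi enzyme known from detoxification of electrophiles, was at 47.9 FPKM in C, 48.9 in R, 63.6 in 1K, 43.8 in 2K, 33.8 in 3K, 109 in RR, 113 in 1KR, 103 in 2KR and 40.7 in 3KR. RR, 1KR and 2KR were all above the day 28 libraries, and 3KR was below R. Of its words, 33.7% are shared, mostly with Gstp2. Gstp3 had another order, with 23.1 FPKM in 2K, 12.0 in 3K and 3.25 in R. Gstt1 was at 52.8 FPKM in RR and 16.9 in R, Gstk1 at 47.7 and 12.8, and Gstt2 moved least, between 15.5 and 31.8. Gstt4 stayed under 0.05 FPKM throughout.

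UGT1 enzymes come from 1 locus on chromosome 1 (88055388 to 88220002), where 9 alternative first exons are joined to the same later exons. Between 50.3% and 60.6% of the exonic bases of each gene belong also to another member, so single values depend on how reads were divided and the sum is firmer. That sum was 96.1 FPKM in C, 124 in R, 286 in 1K, 162 in 2K, 77.7 in 3K, 313 in RR, 413 in 1KR, 301 in 2KR and 139 in 3KR. 1KR was highest and 3K lowest, and R and C were below 1K, 2K and all day 33 libraries.

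Ugt1a1, the bilirubin-conjugating enzyme (ENSMUSG00000089960, chromosome 1, 88211959 to 88218997, plus strand), was at 52.7 FPKM in C, 65.7 in R, 155 in 1K, 86.8 in 2K, 42.6 in 3K, 176 in RR, 267 in 1KR, 204 in 2KR and 67.7 in 3KR. Ugt1a7c, which is read from an upstream first exon, was at 28.8 FPKM in C, 39.9 in R, 102 in 1K, 36.9 in 2K, 27.5 in 3K, 109 in RR, 125 in 1KR, 83.8 in 2KR and 40.6 in 3KR. These were the main UGT1 genes in every library. The 2 phenol-conjugating genes Ugt1a6a and Ugt1a6b were at 17.8 and 3.63 FPKM in 3KR and at 16.2 and 12.6 in 2K, but 79.8% of the words of Ugt1a6b are shared. Ugt1a5 and Ugt1a2 stayed between 0.485 and 5.9 FPKM, Ugt1a9 reached 3.3 FPKM in 1KR, and Ugt1a8 and Ugt1a10 stayed under 1.

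UGT2 enzymes conjugate steroids, bile acids and drugs, and their 10 genes lie together on chromosome 5 (86889767 to 87490871). Ugt2b34 (ENSMUSG00000029260, chromosome 5, 86889767 to 86906937, minus strand) was the most abundant, at 108 FPKM in C, 118 in R, 203 in 1K, 45.6 in 2K, 25.2 in 3K, 253 in RR, 281 in 1KR, 230.0 in 2KR and 94.2 in 3KR. Both libraries short of tryptophan and niacin at day 28 were below C and R. Ugt2a3, which lies between Ugt2b37 and Ugt2b38 (ENSMUSG00000035780, chromosome 5, 87324972 to 87337195, minus strand), had 13.3 FPKM in C, 20.6 in R, 75.1 in 1K, 13.2 in 2K, 3.06 in 3K, 90.2 in RR, 92.9 in 1KR, 65.8 in 2KR and 5.47 in 3KR. It spanned 30.4-fold, against 11.2-fold for Ugt2b34.

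The less abundant Ugt2b genes were far lower in 3K than elsewhere. Ugt2b5 was at 0.165 FPKM in 3K and between 6.32 and 34.1 in the others, Ugt2b36 at 0.183 against 2.24 to 12.7, and Ugt2b35 at 0.9 against 4.51 to 22.4. Against R, the log2 differences of 3K were -3.36, -3.37 and -2.28. In the same pair 6 of 7 ileal markers and all 8 goblet cell markers were at least 2-fold lower, and 2 of 10 gut epithelium markers were. Ugt2a1, Ugt2a2, Ugt2b37 and Ugt2b38 stayed under 1 FPKM, as did Ugt3a1.

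Sulfotransferases of the SULT1 family act on phenols, thyroid hormones and catechols. Sult1b1 (ENSMUSG00000029269, chromosome 5, 87513339 to 87538195, minus strand) had the highest mean of the SULTs, though not the highest value in every library. It had 106 FPKM in C, 105 in R, 303 in 1K, 80.1 in 2K and 65.5 in 3K. At day 33 it had 273 in RR, 350.2 in 1KR, 283 in 2KR and 75.7 in 3KR. Sult1d1, its neighbour on that strand, was at 117 FPKM in C, 95.01 in R, 281 in 1K, 222 in 2K, 121 in 3K, 211 in RR, 219.8 in 1KR, 162 in 2KR and 81.8 in 3KR. The neighbours parted in 2K, where Sult1b1 was below R and Sult1d1 above it. Sult1a1, a phenol sulfotransferase, was ordered differently from most members. It was at 9.01 FPKM in C, 8.78 in R, 6.63 in 1K, 58.1 in 2K, 11.3 in 3K, 5.45 in RR, 5.97 in 1KR, 6.31 in 2KR and 29.3 in 3KR, the highest libraries being 2K and 3KR.

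Sult2b1 was at 74.2 FPKM in C, 145 in R, 266 in 1K, 68.3 in 2K, 74.5 in 3K, 174 in RR, 229 in 1KR, 182 in 2KR and 91.5 in 3KR. Sult6b2, a sulfotransferase without a well-known substrate (ENSMUSG00000048473, chromosome 6, 142785204 to 142804502, minus strand), had the widest range of the well-measured members. It was at 0.035 FPKM in C, 0.199 in R, 137 in 1K, 52.8 in 2K, 24.7 in 3K, 15.0 in RR, 54.9 in 1KR, 3.19 in 2KR and 0.261 in 3KR. All 3 deficient libraries of day 28 were above every normal-diet library, and at day 33 only 1KR was above RR. Its transcripts share 0 of their 50-base words with other genes. Its namesake Sult6b1, on chromosome 17, stayed under 1 FPKM.

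Some members were measurable almost only in 2K, the library with the hepatocyte, acinar and stomach markers. Of the 52 members with at least 1 FPKM anywhere, 18 were highest in 2K (34.6%, against 17.6% of all genes). Gsto2, Ugt2b1, Ugt3a2, Sult1e1, Sult2a1, Sult2a2, Sult2a5 and Sult2a6 reached 1 FPKM in 2K alone. They were counted only through 2K and so could only be highest there. The share without such members was not computed. Sult2a1, which sulfates bile acids and steroids in liver, was at 27.8 FPKM in 2K, listed at 0 in 1K and RR, and at most 0.712 elsewhere. Sult2a2 was at 18.9 FPKM in 2K and at most 0.64 elsewhere, and Sult2a5 and Sult2a6 were at 4.12 and 4.53 against at most 0.123. The Sult2a genes lie together on chromosome 7 (13623967 to 14494230), and 62.1% of the words of Sult2a2 are shared, mostly with Sult2a1.

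Sult1e1, the estrogen sulfotransferase, was at 12.1 FPKM in 2K and at most 0.691 elsewhere, and was listed at 0 in C. Ugt3a2 was at 8.39 against at most 0.535, Sult1c2 at 28.1 against at most 3.89, and Ugt2b1 at 3.46 against at most 0.814. In 2K the hepatocyte gene Alb was at 15459 FPKM, and in the other libraries between 1.08 and 167. All 12 acinar markers and all 9 stomach markers found in the table also had at least 1 FPKM in 2K. Gstm3, Ugt2b34 and Mgst2, by contrast, were lower in 2K than in R.

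The 3K library shared the acinar markers but not those of stomach, with Alb at 81.7 FPKM. Sult2a1 and Ugt3a2 were at 0.167 and 0.023 FPKM there, and Gsta4 at 9.49. Sult2a8, the member that was highest in C, was at 1.79 FPKM in C, 0.993 in 2K and at most 0.32 elsewhere.

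**Figure D5:**
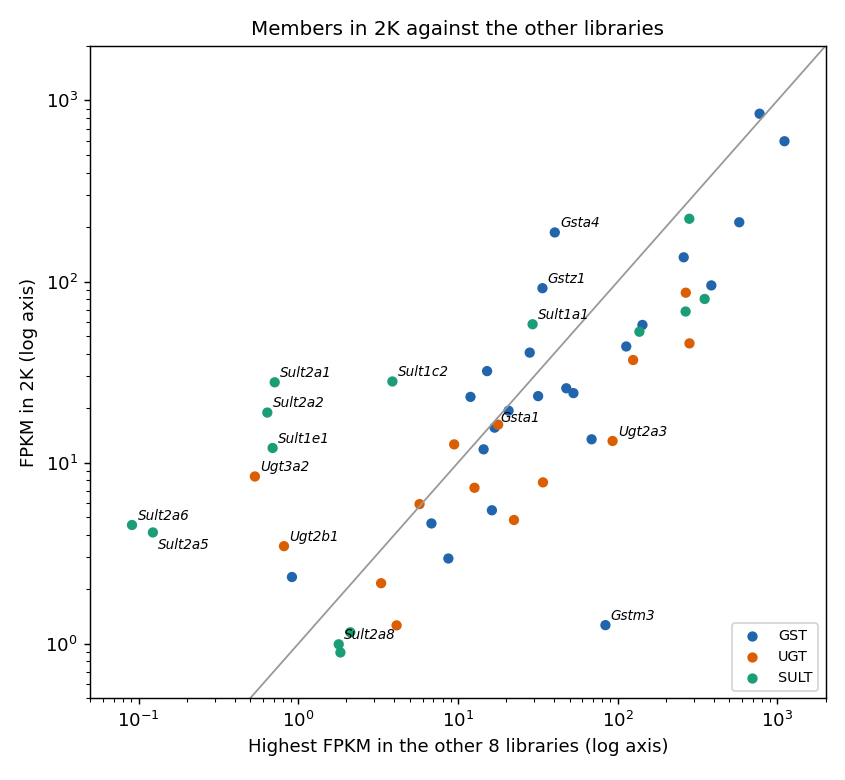
FPKM in 2K against the highest FPKM in the other 8 libraries, both on log axes, for the 52 members with at least 1 FPKM anywhere, coloured by superfamily, with the line of equality. Sult2a1 (27.8 against 0.712), Sult2a2, Sult1e1 and Ugt3a2 lie far above the line, and Gstm3 (1.27 against 83.8) far below.

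The highest library differed by family. In RR 9 members were highest (17.3%, against 5.07% of all genes), of which 6 were mu GSTs. In 1KR 14 members were highest (26.9%, against 9.00%), including 5 Ugt2 genes, 3 Ugt1a genes, Mgst3 and Sult1b1. In 1K 6 were highest (11.5%, against 15.0%), and in 3K 2, Sult4a1 and Sult5a1, both at or under 2.12 FPKM (3.85%, against 16.7%). R held the highest value of 0 members (8.15% of all genes), C of 1 (9.10%), 2KR of 1 (4.89%) and 3KR of 1, Ugt1a6a (14.5%).

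The 8 DSS libraries form a factorial of day and both diet factors, which allowed a test. A linear model was fitted with limma to the 17577 genes averaging at least 1 FPKM over these libraries, 45 of them members, with the interaction of the diet factors set to 0 to give 2 residual degrees of freedom. At a Benjamini-Hochberg adjusted p under 0.05, limma called 0 of 45 members for methionine deficiency at day 28 (0% of all genes either way; 0 members and 563 genes at an unadjusted p under 0.05). For tryptophan and niacin deficiency at day 28 it called 0 members (0.171% of all genes higher and 0.0171% lower). Unadjusted, 6 of 45 members and 3380 of 17577 genes passed for that term. For the former methionine deficiency at day 33 limma called 0 (0% of all genes), with 1 member and 218 genes unadjusted. For the former tryptophan and niacin deficiency it called 0 (0% of all genes), with 3 members and 389 genes unadjusted. No other tool was run.

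The member nearest to the threshold was Gstm3, with -2.48 ± 0.35 (SE) on the log2 scale for tryptophan and niacin deficiency at day 28 and a limma adjusted p of 0.111. It was lower in 2K than in R and lower in 3K than in 1K. Its values depend in part on how reads shared with Gm8834 were divided. At day 33 its terms were -2.27 ± 0.35 for methionine (limma adjusted p = 1) and -2.21 ± 0.35 for tryptophan and niacin (adjusted p = 0.98). For Mgst2 the tryptophan and niacin term at day 28 was -1.21 ± 0.30 (limma adjusted p = 0.172), and for Ugt2b34 it was -2.17 ± 0.57 (0.179). The median standard error over the members was 0.68, so a 2-fold difference, which is 1 on this scale, was less than 2 standard errors.

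Genes that supply or accompany conjugation were described in the same way, from lists with no test. Of 22 phase I enzymes, which oxidise or hydrolyse compounds before conjugation, 16 were at least 2-fold higher in RR than in C and 0 lower, and in 3KR against RR 1 was higher and 14 lower. Cyp2b10, the textbook target of the receptor CAR, was at 7.09 FPKM in C, 20.4 in R, 110.4 in 1K, 24.2 in 2K, 5.99 in 3K, 201.5 in RR, 182 in 1KR, 78.7 in 2KR and 20.1 in 3KR. Nr1i3, which encodes CAR, was at 5.60 FPKM in C, 4.52 in R, 54.1 in 1K, 30.1 in 2K, 9.55 in 3K, 32.4 in RR, 48.9 in 1KR, 24.9 in 2KR and 5.69 in 3KR. The carboxylesterase Ces2a was, like Gstm1 and Gstm3, highest in RR, at 372 FPKM against 196 in 1KR and 139 in 2KR.

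Of 12 genes that supply UDP-glucuronic acid and the sulfate donor PAPS, 4 were at least 2-fold higher and 0 lower in both RR against C and 1K against R. Ugdh, which makes UDP-glucuronic acid, was at 130 FPKM in C, 117 in R, 363 in 1K and 328 in RR. Papss2, which makes PAPS, was at 29.8 FPKM in C, 31.8 in R, 210.2 in 1K, 334 in 2K, 139.6 in 3K, 91.5 in RR, 189 in 1KR, 45.7 in 2KR and 100.4 in 3KR. Like Sult6b2, it was above R in each deficient library of day 28.

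Of 15 genes of glutathione synthesis and recycling, 3 were higher and 0 lower by 2-fold in RR against C, and 2 higher and 3 lower in 2K against R, where Anpep, a brush border peptidase, was at 262 against 3258 FPKM. Slc7a11, the cystine importer, was at 14.2 FPKM in 3KR and 1.25 in RR. Of 14 NRF2 targets outside the families, 4 were higher and 0 lower in RR against C, and 6 higher and 1 lower in 2K against R, including the quinone reductase Nqo1 at 86.3 against 10.7. Cbr1, a carbonyl reductase, had 203 FPKM in RR against 42.4 in C.

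Among 16 xenobiotic receptors and gut transcription factors, 5 were higher and 0 lower in RR against C, and 0 higher and 5 lower in 3KR against RR. Nfe2l2, which encodes NRF2, had 133 FPKM in RR, 63.9 in C and 70.2 in 3KR, and Hnf4a at 211, 216 and 168. Efflux transporters had 1 of 12 higher and 1 lower in RR against C, with Abcc2, the apical exporter of conjugates, at 145 against 39.0 FPKM. Other conjugating enzymes had 6 of 12 higher and 0 lower in 2K against R, led by Gnmt at 332 against 1.11 and Nnmt at 83.0 against 2.14. Deconjugating enzymes had 2 of 9 higher and 0 lower in RR against C, with the lactase gene Lct at 472 against 130.03 FPKM.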

How the data were processed

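The authors deposited FPKM values for 55468 genes in 9 libraries of total RNA from intestinal tract, depleted of ribosomal RNA per the labels' protocols. The submitters' processing notes name HISAT2, Cuffdiff 2.2.1 and GRCm38. The sources used here do not give the annotation, the read length or how reads shared by several genes were divided, and values of near-identical members depend on that division. Deposited FPKM were put on the scale log2(FPKM + 0.5) without other change, so a fold of a low gene is understated. Gene positions, exon sharing and 50-base words came from GENCODE M21, in which all 67 members were found. Depth was estimated from the smallest FPKM steps of genes with a single transcript, so no counting interval is given.

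The fit used limma 3.58.1 in R 4.3.3 and was tested on simulated data. For each diet term it called 0 of 50 genes shifted by 1 on the log2 scale. Of 50 shifted by 2 it called 10 to 14, and 4 to 13 unchanged genes were called. A count of 0 members called therefore does not show that members were unchanged. With 1 library per condition, labels show no replicates, and the fit tests each diet term against a spread taken from departures from additive diet effects. Values in each library were given for the 6 members with the highest mean in each of GST, Ugt1a, Ugt2 with Ugt3, and Sult, and for the 4 farthest each way per comparison among those with at least 5 FPKM in either library. Other members were named after their values were seen. From each of 8 pathway lists up to 3 genes by mean and 3 by difference were eligible, and 15 marker lists were read. The members and lists were chosen with earlier results of these data known. Other settings tried were pseudocounts of 0.1 and 1, a 5 FPKM floor and none, scaling by median of ratios (7809 genes), leaving out the Ugt1a locus, a fit without the trend, and leaving out each library.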

Additional observations from a re-analysis of the deposited data

Results flagged for a closer look

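A few members lay at least 2-fold on opposite sides of the control at day 28 and at day 33 for the same diet. Each comparison has 1 library a side, and the difference between days was not tested. Gstm1 was 1.16 higher on the log2 scale in 1K than in R, but -1.41 in 1KR against RR. Sult6b2 was 6.25 in 2K against R and -2.06 in 2KR against RR, and 5.17 in 3K against R and -4.34 in 3KR against RR. Gsta1 was 2.66 in 3K against R and -1.62 in 3KR against RR, with most of its sequence shared with Gm3776. In each case RR itself was above R, by 1.79 for Gstm1, 4.47 for Sult6b2 and 3.41 for Gsta1.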

How the results depend on the processing

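Of 108 recomputed counts of members at least 2-fold apart, 100 stayed within 1.5 times the reported one. In R against C the count lower became 3 with no floor and 0 with a floor of 5 FPKM, and in RR against C 2 and 0. In 3K against R the count higher, 7 as reported, became 4 with a pseudocount of 1 and 4 with a floor of 5 FPKM. In 2KR against RR the count higher became 2 with no floor, and in 3KR against RR it became 1 with a floor of 5 FPKM. A higher floor leaves fewer genes counted, no floor more, and a larger pseudocount shrinks folds of low genes. Of 198 recomputed differences of named members 1 moved, and of 135 differences of family sums 7, with 0 that were at least 2-fold changing sign. The fit called 0 members in all 56 recomputed counts (4 diet terms under each other setting), including those that left out each library in turn, where the counts ran from 0 to 0. Fits without a library had 1 residual degree of freedom and called no gene, member or not. Their counts therefore cannot show whether the result is stable. Without 2K, 4 members in place of 1 were highest in 3KR. No paired analysis was possible because each condition has a single library and the labels give no replicate numbers. Depth limits members under 1 FPKM, most of all in 3KR.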
